A study of Arabidopsis thaliana with 6 samples.

Results

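The mRNA levels of *AGL62* and 9 other type I MADS-box genes of the endosperm, the tissue that nourishes the embryo, were compared between WT and *agl62* seeds of *Arabidopsis*. The genes were chosen by name, as *AGL62*, *PHE1*, *PHE2*, *AGL28*, *AGL35*, *AGL36*, *AGL40*, *AGL86*, *AGL90* and *AGL92*, and all 10 were found among the 32678 genes of the deposited table. Earlier results of these data were known when the choice was made, which limits any comparison with the share of all genes. WT seeds and *agl62* seeds were both collected 30 hr after pollination, in 3 biological replicates per genotype. The methods of the paper describe emasculation and hand pollination for the *agl62* plants of this comparison, and not separately for WT. The *agl62* seeds, labelled *agl62*/-, came from the rare homozygous mutant plants, which form only small amounts of viable seeds. The pollen donor and the strain of the WT plants of these libraries are not given in the sources used here. Whole seeds were sequenced, so endosperm, embryo and seed coat are mixed in each library. The table gives 1 mean of normalized counts per genotype and no value of a single library. All levels below are therefore the authors' means, without a spread between replicates and without a test, and the differences are descriptions of these means.

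MADS-box genes encode transcription factors that bind DNA through a conserved domain at the start of the protein. The type I genes form the groups Mα, Mβ and Mγ and are known mostly from the female gametophyte and the seed, whereas the type II genes are best known for flower development. Proteins of the Mα group pair mainly with those of the Mγ group. *AGL62*, *AGL28* and *AGL40* belong to Mα, and *PHE1*, *PHE2*, *AGL35*, *AGL36*, *AGL86*, *AGL90* and *AGL92* to Mγ. *AGL62* keeps the young endosperm in its syncytial state, in which nuclei divide without cell walls, and the endosperm of mutant seeds forms cell walls too early. Several of these genes are repressed by the FIS Polycomb complex, and some are imprinted: *PHE1* and *AGL92* are expressed mainly from the paternal allele and *AGL36* mainly from the maternal one.

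Near-identical copies occur among these genes, and the authors kept only reads that mapped to 1 place, so the sequences of the closest pairs are shown first. The coding sequences of *PHE1* and *PHE2* were identical at 88.7% of their 825 aligned bases, and those of *AGL36* and *AGL90* at 96.3% of 963. The first 180 coding bases, which encode the DNA-binding domain, are printed 5′ to 3′ from RefSeq TAIR10.1, with bases that differ within a pair in capitals. *PHE1* (chr1:24267141-24267320, minus strand) and *PHE2* (chr1:24254929-24255108, plus strand) differed at 26 of these bases, and *AGL36* (chr5:9343785-9343964, plus strand) and *AGL90* (chr5:9992591-9992770, minus strand) at 7.
PHE1: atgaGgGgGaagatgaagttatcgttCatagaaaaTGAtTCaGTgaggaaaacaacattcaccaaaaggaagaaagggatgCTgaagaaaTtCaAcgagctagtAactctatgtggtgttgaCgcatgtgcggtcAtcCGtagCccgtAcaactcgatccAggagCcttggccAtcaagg
PHE2: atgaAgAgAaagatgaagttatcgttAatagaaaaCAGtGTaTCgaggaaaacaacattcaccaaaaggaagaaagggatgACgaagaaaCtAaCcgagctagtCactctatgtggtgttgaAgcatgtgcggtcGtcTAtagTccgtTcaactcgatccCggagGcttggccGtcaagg
AGL36: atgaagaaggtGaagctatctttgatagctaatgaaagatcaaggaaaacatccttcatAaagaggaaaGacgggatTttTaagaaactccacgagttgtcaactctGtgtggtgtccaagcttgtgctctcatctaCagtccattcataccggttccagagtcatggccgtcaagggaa
AGL90: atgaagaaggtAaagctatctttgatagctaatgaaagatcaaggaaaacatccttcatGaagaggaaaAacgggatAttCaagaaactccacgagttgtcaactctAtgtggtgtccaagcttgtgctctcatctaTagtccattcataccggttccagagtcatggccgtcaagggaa

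Every stretch of 100 bases of these genes, the read length, was searched in the nuclear genome. Of the stretches of *AGL36*, 1.06% had an exact copy elsewhere, and 26.2% had a copy with at most 2 mismatches, all in *AGL90*. For *AGL90* the shares were 1.22% and 29.9%, all in *AGL36*. For *PHE1* and *PHE2* the shares with at most 2 mismatches were 6.52% and 7.71%, each in the other gene of the pair. The remaining 6 genes had no such copy, which includes *AGL62*, *AGL35*, *AGL40* and *AGL28*. *AGL86* and *AGL92*, identical at 84.8% of 1005 aligned coding bases, had none either. Reads of *AGL36* and *AGL90* can therefore be lost or shared within that pair, and their separate values are less certain than the others. No annotated gene overlaps any of the 10.

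The 2 columns of the table were on one scale. The sum of all means was 60412799 for WT and 58421347 for *agl62*. A total of 21861 genes reached a mean of 3 in WT, in *agl62* or in both, and their median log2 ratio of *agl62* over WT was 0.01. The smallest means are sums of single counts, each worth a fixed step per library, and these steps gave relative depths of 1.38, 1.02 and 0.456 for the WT libraries and of 1.3, 1.15 and 1.06 for those of *agl62*. From these steps a 95% interval was computed for each mean (gamma method, one level assumed in the 3 libraries). It covers counting error only and not the spread between replicates. A mean under 3 was set to 3 in any ratio. The fold is then a lower bound for the ratio of the listed means, and this bound leaves out counting error.

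*AGL62* (AT5G60440, chromosome 5, 24305381 to 24307716 in TAIR10.1, 2 exons) checks the labels, since it is the mutated gene. Its mean was 410 in WT (counting interval 384 to 437) and 1.81 in *agl62* (0.684 to 3.92). The second value rests on 6 counts over the 3 libraries, and is 0.441% of the WT mean. With the floor of 3 the listed mean in *agl62* was lower by a factor of at least 137, and 16 other genes of the 21861 had an equal or lower ratio. The upper counting limit in *agl62*, 3.92, lies above this floor, so with counting error the factor can be smaller. *AGL35* (AT5G26630), an Mγ gene on the other arm of chromosome 5, showed almost the same picture. Its mean was 471 in WT (443 to 500) and 3.94 in *agl62* (2.14 to 6.69), the latter from 13 to 15 counts. This is a 120-fold lower level, a log2 ratio of -6.90 (counting interval -7.79 to -6.13), and 21 other genes had an equal or lower ratio. *AGL62* and *AGL35* together made up 61.5% of the summed means of the 10 genes in WT and 1.61% in *agl62*.

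Both *PHERES* genes and *AGL36* were also lower in *agl62*, but by far less. The mean of *PHE1* (AT1G65330), known as a paternally expressed target of the FIS complex, was 302 in WT (280 to 326) and 98.6 in *agl62* (88.4 to 110). The log2 ratio was -1.61 (-1.81 to -1.43), or 3.06-fold lower. *PHE2* (AT1G65300), its close relative, had means of 96.3 (84.1 to 110) and 60 (52.1 to 68.7) and a log2 ratio of -0.68 (-0.96 to -0.41). Per kilobase of exon, *PHE1* stood at 2.69 times the level of *PHE2* in WT and at 1.41 times in *agl62*, so the gap between the 2 genes was smaller in the mutant. *AGL36* (AT5G26650), known as a maternally expressed gene, had means of 33.4 in WT (26.4 to 42.1) and 11.1 in *agl62* (7.88 to 15.2), with a log2 ratio of -1.59 (-2.19 to -1.02). The counting intervals of *PHE1*, *PHE2* and *AGL36* leave out the spread between replicates. Whether the replicates overlapped is not known.

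*AGL40* (AT4G36590) was close to the same level in both genotypes, with means of 110 in WT (96.9 to 125) and 105 in *agl62* (94.5 to 116). The log2 ratio was -0.07, with a counting interval of -0.30 to 0.17. *AGL40* is an Mα gene like *AGL62*, and its *agl62* mean was 95.5% of the WT mean.

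A group of genes, *AGL28*, *AGL92* and *AGL90*, lay in the opposite direction. The mean of *AGL28* (AT1G01530), an Mα gene, was 10.5 in WT (6.74 to 16.1) and 46 in *agl62* (39.2 to 53.7). It was 4.38-fold higher in *agl62*, a log2 ratio of 2.13 (1.48 to 2.81). *AGL92* (AT1G31640) was listed at 0 in WT (0 to 2.7) and at 21.2 in *agl62* (16.6 to 26.7), which makes it at least 7.07-fold higher. *AGL90* (AT5G27960) was listed at 0 in WT and at 9.4 in *agl62* (6.46 to 13.3), at least 3.13-fold higher. *AGL92* and *AGL90* reached a mean of 3 only in *agl62*, so they could enter the comparison only as higher there. Reads of *AGL90* can also be lost to or shared with *AGL36*. *AGL86* (AT1G31630), which lies 3144 bases from *AGL92*, was listed at 0 in WT and at 0.605 in *agl62*, from 2 counts. Both of its means are under 3, so no fold is given. For the genes listed at 0 in WT, as for the differences in the other genes, the *agl62* genotype and any difference in the background of the plants cannot be told apart.

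**Figure D1:**
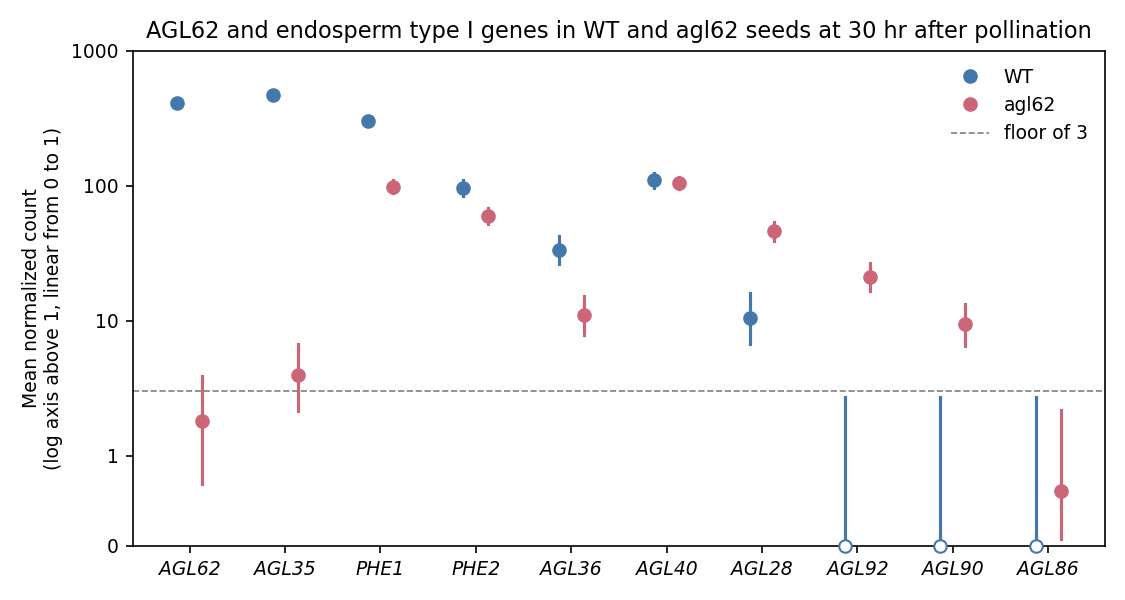
Authors' mean normalized counts of the 10 genes in WT (blue) and *agl62* (red) seeds. Vertical lines are 95% counting intervals, open points mark means of 0, and the dashed line is the floor of 3; the axis is logarithmic above 1. *AGL62* and *AGL35* are at 410 and 471 in WT and at 1.81 and 3.94 in *agl62*, *AGL40* is at 110 and 105, and *AGL28*, *AGL92* and *AGL90* are higher in *agl62*.

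In all, 4 of the 10 genes were at least 2-fold lower in *agl62* (*AGL62*, *AGL35*, *PHE1* and *AGL36*). Among the 21861 genes compared, 3.89% were at least 2-fold lower. *AGL62* is the mutated gene, and without it the count was 3 of 9, with 1 gene (*AGL35*) lower by 4-fold or by 100-fold. Another 3 of the 10 were at least 2-fold higher (*AGL28*, *AGL90* and *AGL92*), against 3.87% of all genes. Of these 3, *AGL90* and *AGL92* reached a mean of 3 only in *agl62*, the genotype in which they were higher. At 4-fold, 2 of the 10 were lower (*AGL62* and *AGL35*, against 1.99% of all genes) and 2 higher (*AGL28* and *AGL92*, against 0.851%). *PHE2* and *AGL40* differed by less than 2-fold, and *AGL86* could not be compared. Of all genes, 0.11% were at least 100-fold lower with the floor of 3, which here holds for *AGL62* and *AGL35*. The 9 genes that could be compared had a median log2 ratio of -0.68, a value that describes genes of opposite sign. *AGL90* and *AGL92* entered it only through their *agl62* level, and *AGL62* only through its WT level. The summed mean of the 10 genes was 1433 in WT and 357.7 in *agl62*, or 25% of the WT level. Without *AGL62* and *AGL35*, the sum of the other 8 genes in *agl62* was 63.7% of that in WT.

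**Figure D2:**
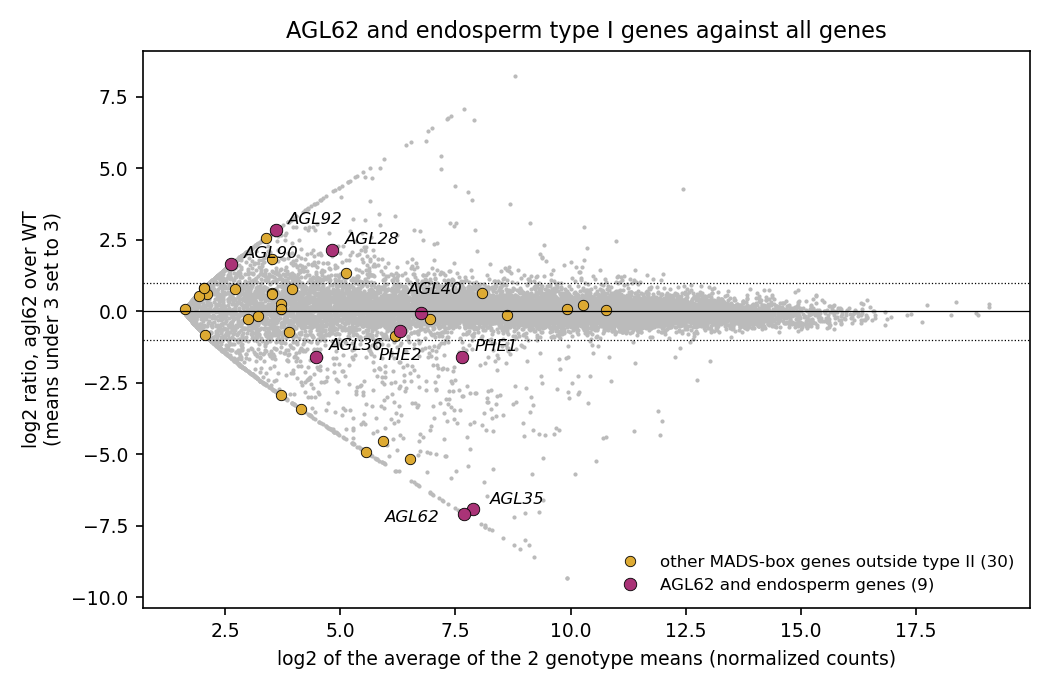
Each grey point is 1 of the 21861 genes compared, with the log2 of its average mean on the x axis and its log2 ratio of *agl62* over WT on the y axis. Purple points are the 9 genes compared, yellow points 30 other MADS-box genes outside type II, and dotted lines mark 2-fold. *AGL62* and *AGL35* lie at the lower edge, near -7.

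The order of the levels per kilobase of exon was different in the 2 genotypes. In WT, *AGL35* was the highest (582 normalized counts per kb, counting interval 548 to 618), followed by *PHE1* (280, 259 to 301) and *AGL62* (201, 188 to 214). *AGL40* (111) and *PHE2* (104) followed, with counting intervals that overlap each other. *AGL36* (27.2) and *AGL28* (13.9) were lower, and the last 3 were listed at 0. In *agl62*, *AGL40* (106, 95.1 to 117) and *PHE1* (91.3, 81.9 to 102) led, with overlapping intervals. *PHE2* (64.6) and *AGL28* (60.7) came next and also overlapped. *AGL92* (15.2), *AGL90* (9.76) and *AGL36* (9.05) formed a lower group, in which the counting intervals of all 3 overlap. *AGL35* followed at 4.87 per kb, with an interval (2.64 to 8.27) that overlaps those of *AGL36* and *AGL90*, and *AGL62* and *AGL86* were below 1. The gene models of *PHE2*, *AGL36*, *AGL86*, *AGL90* and *AGL92* are marked as partial in RefSeq, so their lengths may be too short and their levels per kb too high. *AGL62* has 2044 exon bases in RefSeq, with 900 coding bases, and *PHE1* has 1080 and 840. The order of *PHE1* and *AGL62* in WT depends on the length used, since *AGL62* had the higher mean (410 against 302).

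Several of the genes lie close together. *AGL36* and *AGL35* are separated by 5.8 kb on chromosome 5 with 1 protein-coding gene between them, AT5G26640, which was at 0 in both genotypes. *AGL35* was 120-fold lower and *AGL36* 3.01-fold lower in *agl62*, so these neighbours shared the direction but not the size. *PHE2* and *PHE1* are 10.4 kb apart on chromosome 1, with 2 protein-coding genes between them. *CBSX6* had means of 1360 in WT and 1380 in *agl62*, and *XTH17* of 0.326 and 0. *AGL86* and *AGL92* are adjacent on the same strand, and only *AGL92* was above 3 in *agl62*. The nearest protein-coding genes outside the 10 with a mean of at least 3 in both genotypes had log2 ratios between -0.55 (AT4G36580, beside *AGL40*) and 0.29 (AT5G60430, beside *AGL62*). On the other side of *AGL62*, *ARF4* had means of 248 in WT and 219 in *agl62*. Beside *AGL92*, *ROPGEF14* had 2270 and 2280, and beside *AGL90*, AT5G27950 had 3360 and 3770. None of these neighbours was 2-fold different. *MYB86*, beside *AGL36*, had means of 0.969 in WT and 3.49 in *agl62*, too low for more than a bound.

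**Figure D3:**
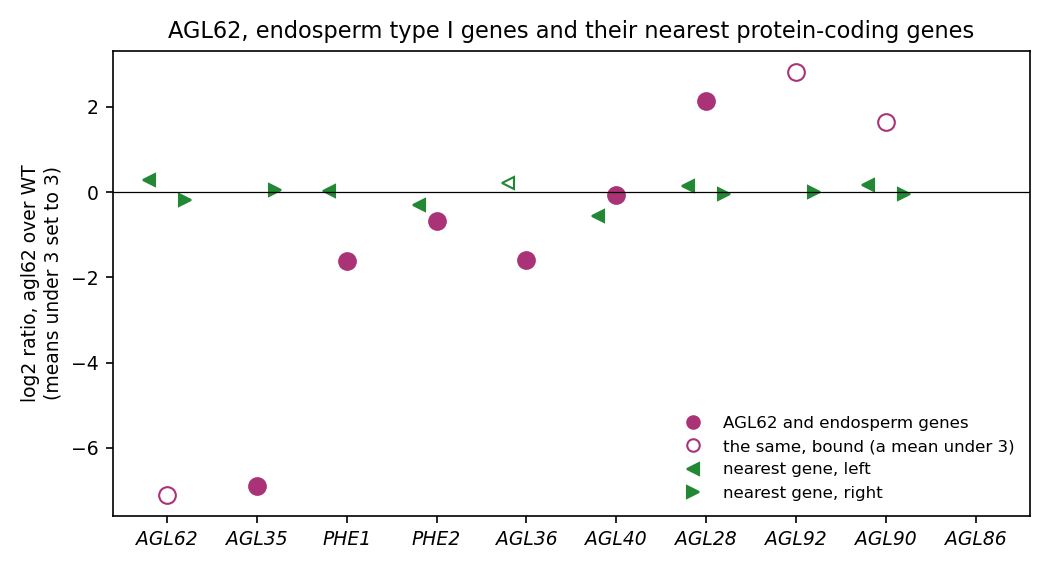
Log2 ratio of *agl62* over WT for the 10 genes (circles; open where the value is a bound, *AGL86* not shown) and for the nearest protein-coding gene on the left and on the right (green triangles), where that gene is outside the 10 and has a mean of at least 3 in a genotype; the open triangle is a bound (*MYB86*). The filled triangles lie between -0.55 and 0.29, while the MADS-box genes range from -7.09 to 2.82.

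The 250 bases before the annotated start of *AGL36* and *AGL90* are shown because the 2 genes lay in opposite directions. The 2 sequences (chr5:9343535-9343784, plus strand, and chr5:9992771-9993020, minus strand, TAIR10.1) were identical at 95.6% of the bases and differed at 11, in capitals.
AGL36: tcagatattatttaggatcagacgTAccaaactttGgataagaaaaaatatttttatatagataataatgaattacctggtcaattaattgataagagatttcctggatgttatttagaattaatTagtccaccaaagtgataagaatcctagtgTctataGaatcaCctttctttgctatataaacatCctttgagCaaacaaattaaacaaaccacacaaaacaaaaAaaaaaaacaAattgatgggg
AGL90: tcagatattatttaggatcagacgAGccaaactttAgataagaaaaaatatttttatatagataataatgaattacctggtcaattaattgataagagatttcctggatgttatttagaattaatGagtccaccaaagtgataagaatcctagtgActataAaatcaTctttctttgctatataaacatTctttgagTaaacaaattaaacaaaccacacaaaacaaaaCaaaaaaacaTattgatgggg

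The mean of *AGL36* and that of *AGL90* summed to 33.4 in WT, all of it listed under *AGL36*, and to 20.5 in *agl62*, with 11.1 under *AGL36* and 9.4 under *AGL90*. In WT, at least 46 counts were given to *AGL36* and none to *AGL90*. In *agl62* the 2 genes had 36 to 43 and 30 to 36 counts.

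MADS-domain proteins bind the CArG box. Only its strict form was searched, in which nothing but A and T stands between CC and GG. The search covered both strands from 250 bases before to 50 bases after the annotated start of each gene. Of 27443 protein-coding genes, 3.05% held one. Among the 10 genes, only *AGL35* did, at 120 bases before its start. Looser forms of the box and sites further away were not searched. The partial models of *PHE2*, *AGL36*, *AGL86*, *AGL90* and *AGL92* begin at the start codon, so their true start may lie further upstream. The 250 bases before *AGL35* (chr5:9350562-9350811, plus strand, TAIR10.1) are printed with the box in capitals, since *AGL35* was, of the other 9 genes, the nearest to *AGL62* in WT mean and log2 ratio. The match is a description of the sequence and shows no binding.
AGL35: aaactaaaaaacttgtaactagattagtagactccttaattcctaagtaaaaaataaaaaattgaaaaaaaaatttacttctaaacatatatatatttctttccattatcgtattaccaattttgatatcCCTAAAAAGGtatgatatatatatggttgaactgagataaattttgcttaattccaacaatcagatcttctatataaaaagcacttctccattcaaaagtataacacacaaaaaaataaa

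The wider family gives the setting of these values. RefSeq names 122 loci on the nuclear chromosomes as AGAMOUS-like or MADS-box genes, and without 45 type II genes and the 10 described here 67 remained, 64 of them in the table and 57 with reads. A mean of at least 3 was found for 30. Of these, 5 (16.7%) were at least 2-fold lower in *agl62* and 3 (10%) at least 2-fold higher, against 3.89% and 3.87% of all genes compared. The median log2 ratio of the 30 was 0.08. Of the 5 lower genes, 3 were compared only through their WT level, and 1 of the 3 higher genes only through its *agl62* level.

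The lower ones were AT5G46320, *AGL46*, *AGL64*, *AGL48* and *AGL91*, the last named after its value was seen. AT5G46320 had means of 178 in WT and 5 in *agl62*, a 35.6-fold lower level. *AGL64* had 117 and 5.09, a 23-fold lower level. *AGL46* was at 91 in WT and at 0 in *agl62*, at least 30.3-fold lower, and *AGL48* was at 32.4 and 0.256, at least 10.8-fold lower. AT5G46320 and *AGL64* lay between *AGL35* and *PHE1* in the size of their difference. For *AGL46* and *AGL48* the fold is a lower bound, so only a larger difference than that of *PHE1* can be stated. *AGL91* had 23.1 and 1.35. Among the higher ones, *AGL102* had means of 19.9 in WT and 50.2 in *agl62*. *AGL23*, which is known from the female gametophyte and the embryo, had 5.04 and 17.9, and AT1G59930 had 0 and 17.8. Both were named after their values were seen.

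**Figure D4:**
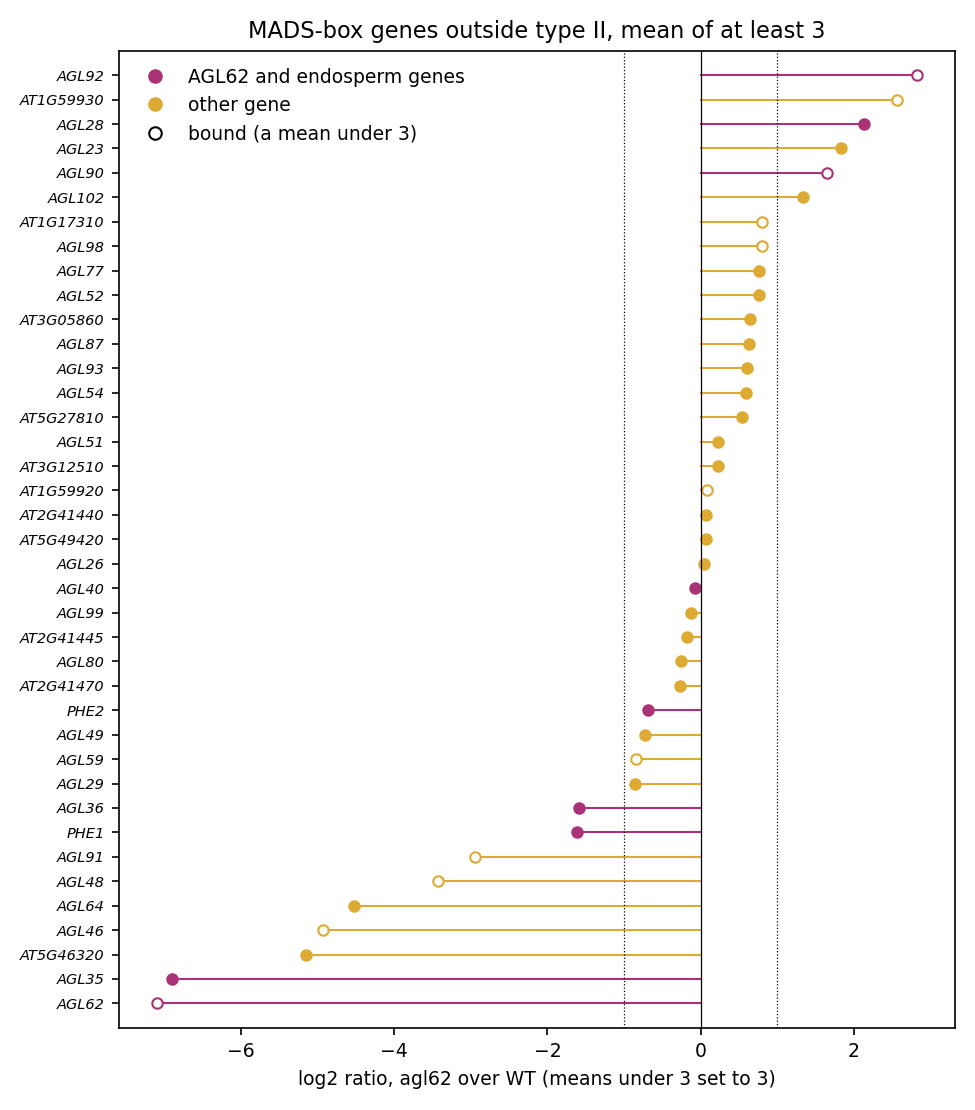
Log2 ratio of *agl62* over WT for the MADS-box genes outside type II with a mean of at least 3, the 9 genes described here in purple and 30 others in yellow. Open circles are bounds and dotted lines mark 2-fold. *AGL62* and *AGL35* stand lowest, followed by AT5G46320 (-5.15), *AGL46* (-4.92) and *AGL64* (-4.52), and *AGL92* (2.82) stands highest.

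The differences of the remaining genes named were smaller, apart from AT5G46320. The highest in WT per kb were *AGL26* (means 1710 in WT and 1770 in *agl62*), AT3G12510 (1150 and 1340), AT2G41440 (947 and 996), *AGL99* (413 and 377) and AT5G46320. RefSeq describes the product of *AGL26* as a tRNA methyltransferase, so this gene is in the list by name only. *AGL29* had means of 94.6 and 52.1, *AGL87* of 213 and 331, and *AGL80*, a known central cell gene, of 134 and 112. The log2 ratio of *AGL80*, an Mγ gene, was -0.26. *AGL34*, identical to *AGL36* at 91.9% of 1029 aligned coding bases, was at 0 in WT and at 0.315 in *agl62*.

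Outside the 10 genes, those most like *AGL62* in WT mean and log2 ratio, by the distance over these 2 values on the log2 scale, were *MRD1*, AT4G02300, AT1G63522, AT2G04910 and AT2G21110, at distances of 0.134 to 0.506. By the same measure *AGL35* lay at 0.278, nearer than the last 3 of these. *MRD1* had means of 384 in WT and 2.91 in *agl62*. AT4G02300, of the invertase and pectin methylesterase inhibitor superfamily, had 375 and 2.34, and AT1G63522, a defensin-like gene, had 356 and 1.16. AT2G04910 had 527 and 3.07, and AT2G21110, a dirigent-like gene, had 320 and 0.291. The *agl62* means of *AGL62*, *MRD1*, AT4G02300, AT1G63522 and AT2G21110 were under 3 and were set to 3. Their ratios are therefore bounds that depend on the WT mean alone, and their distances measure likeness in WT level only. With 2 means per gene, this likeness is a statement of level and not of a shared pattern over samples.

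In whole seeds, fewer endosperm nuclei and less RNA per nucleus cannot be told apart. Markers of the tissues in the seed are given beside the values for this reason, and their part in the differences was not tested. Of 12 other endosperm genes, all with a mean of at least 3, 4 were at least 2-fold lower and 2 at least 2-fold higher. Among all genes compared the shares were 3.89% and 3.87%. The median log2 ratio of the 12 was -0.45. None of the 12 was at 0 in either genotype. *MINI3*, a WRKY factor of seed size, was the lowest of them (149 in WT and 7.46 in *agl62*, log2 ratio -4.32). *RGE1*, a regulator of endosperm breakdown, was the highest (0.326 and 68.3), compared only through its *agl62* level. The summed mean of the 12 was 18130 in WT and 18540 in *agl62*, most of it from *SUC5* (13500 and 14800). *MEA*, the histone methyltransferase of the FIS complex, had 333 and 49.8, and *FIS2*, another subunit, 83.9 and 143. Endosperm genes outside the MADS-box family therefore also lay in both directions.

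The 12 seed coat genes had log2 ratios between -0.14 (*TT2*) and 0.07 (*TT12*), and their summed mean in *agl62* was 98.2% of that in WT. Of 8 embryo genes, 7 were compared. None was 2-fold lower and 2 were higher, against 3.89% and 3.87% of all genes compared. The higher ones were *LEC1* (38 and 325) and *FUS3* (0.242 and 12.4), the latter compared only through its *agl62* level. The summed mean of the 8 was 133.7 in WT and 445.1 in *agl62*, mostly through *LEC1*. The lowest log2 ratio among them was that of *WOX2* (-0.32), and *DRNL* was at 0 in both genotypes. The 8 genes of green tissue summed to 44650 in WT and 66470 in *agl62*, with log2 ratios from 0.08 (*RBCS2B*) to 1.55 (*RBCS1B*). The 5 pollen genes summed to 817.8 and 702.9, with log2 ratios from -1.50 (*PPME1*) to 0.17 (*AGP11*).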

How the data were processed

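The 6 libraries of mRNA (3 per genotype) were read as 100 bp pairs. According to their methods, the authors used TopHat for mapping to TAIR10, kept reads with a unique position and ran DESeq; versions, the counting tool and the gene annotation are not given in the sources used here. Reads that fit near-identical genes equally well were thus dropped. The deposited signal columns hold the authors' mean normalized count per genotype, which is a count divided by a size factor and averaged over the replicates, written to 3 digits. The table also holds the authors' own fold changes and p-values, which were not used here. Values of single libraries were not analysed here, so no test, SD or replicate block was possible, and the fits planned for single libraries were not run.

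Log2 ratios of *agl62* over WT were taken from the means, with means under 3 set to 3, for genes that reached 3 in either genotype. Alternatives were pseudocounts of 1 and 10, a floor or filter of 10, no filter, equal totals and 4-fold in place of 2-fold. The depth steps of the libraries were found from all means under 1, and the procedure was tested on simulated data. Genes were joined by locus identifier to RefSeq TAIR10.1, which matched 31912 identifiers and gave coordinates, exon lengths and sequence; the table itself has no coordinates. Copies of 100-base stretches with at most 2 mismatches were searched with bwa 0.7.19, and coding sequences were aligned with Biopython 1.88. Python 3.11.15, numpy 2.4.6, pandas 2.3.3, scipy 1.17.1 and matplotlib 3.10.9 were used. The 10 genes and all lists were chosen with earlier results of these data known. Besides these genes, those named were the nearest protein-coding genes, in the wider family the 5 highest in WT per kb and the 5 lowest and 5 highest log2 ratios with a mean of at least 30, the 5 genes most like *AGL62*, and the extremes of each marker list. *AGL34*, *AGL80*, *SUC5*, *MEA* and *FIS2* were named after their values were seen.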

Additional observations from a re-analysis of the deposited data

How the results depend on the processing

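No paired analysis was possible because only genotype means were at hand, and the alternatives without each replicate were not run for the same reason. With 4-fold in place of 2-fold, the lower genes among the 10 went from 4 to 2 (*AGL62* and *AGL35*), and the higher genes among the other MADS-box genes from 3 to 1. With a pseudocount of 1 the latter count was 6, since genes with a mean under 3 in WT then have larger ratios. The median log2 ratio of the genes described went from -0.68 to -1.14 with a filter of 10, which removes *AGL90*, and to -0.37 without a filter, which adds *AGL86*. The other 26 values of such counts and medians stayed within 1.5 times, or within counting error for the medians. Among them, the higher genes of the 10 went from 3 to 2 with a pseudocount of 10, a filter of 10 or 4-fold. Without *AGL36* and *AGL90*, which share sequence, 3 genes were at least 2-fold lower and the median was -0.68. The log2 ratio of *PHE1* stayed between -1.61 and -1.52, that of *AGL36* between -1.59 and -1.04 and that of *AGL28* between 1.45 and 2.18. Genes near the floor moved most, with *AGL90* between 0.00 and 3.38 and *AGL92* between 1.08 and 4.47. *AGL62* lay between -7.19 and -5.15, and *AGL35* between -6.90 and -5.11. Whether these 2 genes pass 100-fold therefore depends on the floor or pseudocount used. No alternative turned the direction of a difference of 2-fold or more, but with a floor of 10 both means of *AGL90* lie under the floor and its ratio is 0.00. Depth limits *AGL86* and the *agl62* level of *AGL62*.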
